A study of Mus musculus with 6 samples.

Results

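The 10 genes described here encode transcription factors that set up and maintain the myeloid lineage: Spi1 (which encodes PU.1), Cebpa, Cebpb, Cebpd, Runx1, Runx3, Zeb2, Mitf, Tfec and Ets2. They were taken by gene name from the 34650 gene names of the array annotation, with every non-control probe of each gene, which gave 15 of 55681 probes. Of these, 14 were well above background on at least 2 arrays, and all 10 genes kept at least 1 probe. The samples were macrophage cultures from mice that had received c-Maf KO fetal liver cells (3 samples) or WT fetal liver cells (3 samples). Their titles call them polarized M2-like BMM, the usual short form for bone marrow macrophages. They were compared to ask what c-Maf does in such cells. All cultures were grown in DMEM with serum and 10 ng per ml M-CSF, added daily from day 4 onward, with no other cytokine named. The recipients' strain and age, the kind of c-Maf allele, the share of host cells left in the chimeras and whether replicates came from separate mice are not stated in the labels used here. The p-values therefore cover only variation among the samples at hand, and this may be technical.

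Macrophage identity rests on a small set of factors that act together at the same enhancers. PU.1, of the ETS family, opens these enhancers, and C/EBP and RUNX proteins bind beside it, also at the gene of the M-CSF receptor. Members of the MiT family (Mitf, Tfec) and Zeb2 act in more specialised states, such as osteoclasts and tissue macrophages. c-Maf is a basic leucine zipper factor of the large Maf family that acts late in macrophage differentiation on cells in which these factors are already present.

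RNA was labelled with Cy3 and hybridised to 1-colour Agilent mouse arrays. Levels came from the scanner intensity on 5 arrays (c-Maf KO replicates 2 and 3, WT replicates 1 to 3) and are given as log2 relative to the 75th percentile of the array. The deposited value table covers all 6 samples and holds ratios, which are given as log2 of the ratio to the probe's median. For c-Maf KO replicate 1 only the value table was used here. On each array 48.9% to 50.5% of probes were well above background, and no spot was saturated. Precision is limited by how few arrays there are. Maf, the targeted gene, measured -2.22, -2.36 and -1.92 in c-Maf KO and 1.92, 1.98 and 2.03 in WT (log2 ratios, replicates 1 to 3), so all samples followed their labels. Its difference was -4.14 (SE 0.12, limma, adjusted p = 0.000826). The tissue label is liver, while the sample titles read BMM. Of 4 hepatocyte genes, Alb, Ttr and Apoa1 missed the detection limit (well above background on 2 arrays or more), while Afp was well above background on all 5 arrays, with a mean level of 2.06 in c-Maf KO and 1.93 in WT. All 10 macrophage markers passed the limit. Of the 5 arrays, c-Maf KO replicates 2 and 3 occupied row 2 of the slide and the WT samples row 1, and the effect of row cannot be told apart from that of genotype there. The position of c-Maf KO replicate 1 is not known here.

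The sequences below show what the measurement of Spi1 rests on and where a Zeb2 probe without a usable level lies. Spi1 was measured by a single probe of 60 bases, whose ends lie 13788 bases apart in the genome (chromosome 2, 90939665 to 90953452, mm9, plus strand), so it reads spliced RNA. In lower case it is:

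Spi1 probe: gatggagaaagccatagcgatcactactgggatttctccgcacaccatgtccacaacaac

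Zeb2 had 3 probes, and the third (chromosome 2, 44965914 to 44965973, mm9) was not well above background on any of the 5 arrays. Its 60 bases, in capitals, were found from 176 to 117 bases before 1 of the 4 Zeb2 starts in RefSeq (GRCm38.p6, chr2:45110278-45110527, minus strand). The array annotation gives the probe position 11 in an Ensembl transcript of Zeb2, and the other Zeb2 starts in RefSeq lie upstream of it. Whether its position bears on the lack of signal was not tested. The window shows the probe before the 1 start named above:

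Zeb2 window: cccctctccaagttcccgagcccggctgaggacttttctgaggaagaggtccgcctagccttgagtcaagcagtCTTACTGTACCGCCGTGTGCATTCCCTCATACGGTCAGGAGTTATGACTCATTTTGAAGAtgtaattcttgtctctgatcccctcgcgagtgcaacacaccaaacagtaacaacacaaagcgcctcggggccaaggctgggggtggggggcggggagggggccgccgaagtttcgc

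None of the 14 probes passed the test in either source. limma with Benjamini-Hochberg adjustment over 28273 probes called 0 of the 14 in the value table (adjusted p = 0.314 to 0.984), against 0.0212% of all probes tested. On the 5 arrays it also called 0 of the 14 (adjusted p = 0.514 to 0.934), against 0.0248% of all probes. At an unadjusted p under 0.05 there was 1 of the 14 in the value table, beside 12.1% of all probes, and 0 of the 14 on the arrays, beside 10.5%. The variance model with trend and robust estimation called 0 of the 14 in both sources.

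The intervals cover only the variation among these samples, and on the 5 arrays genotype cannot be told apart from slide row. They were not adjusted for the number of probes. In the value table, 95% intervals lay within 1.5-fold either way for 12 of the 14 probes, beside 74.8% of all probes tested, and within 2-fold for 13, beside 91.3%. The same counts, 12 and 13, on the 5 arrays stood beside 72.0% and 89.7% of all probes. Over the 13 probes that were well above background on all 5 arrays, the farthest end of any interval was a 1.57-fold change. The median absolute log2 difference of these 13 was 0.079, against 0.094 for all probes detected on all arrays, and their median SD within a genotype was 0.12, against 0.11. The 13 probes were thus measured about as tightly as the array as a whole, and 9 of the 10 genes had at least 1 probe with its interval within 1.5-fold. Runx3 was the exception.

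**Figure D1:**
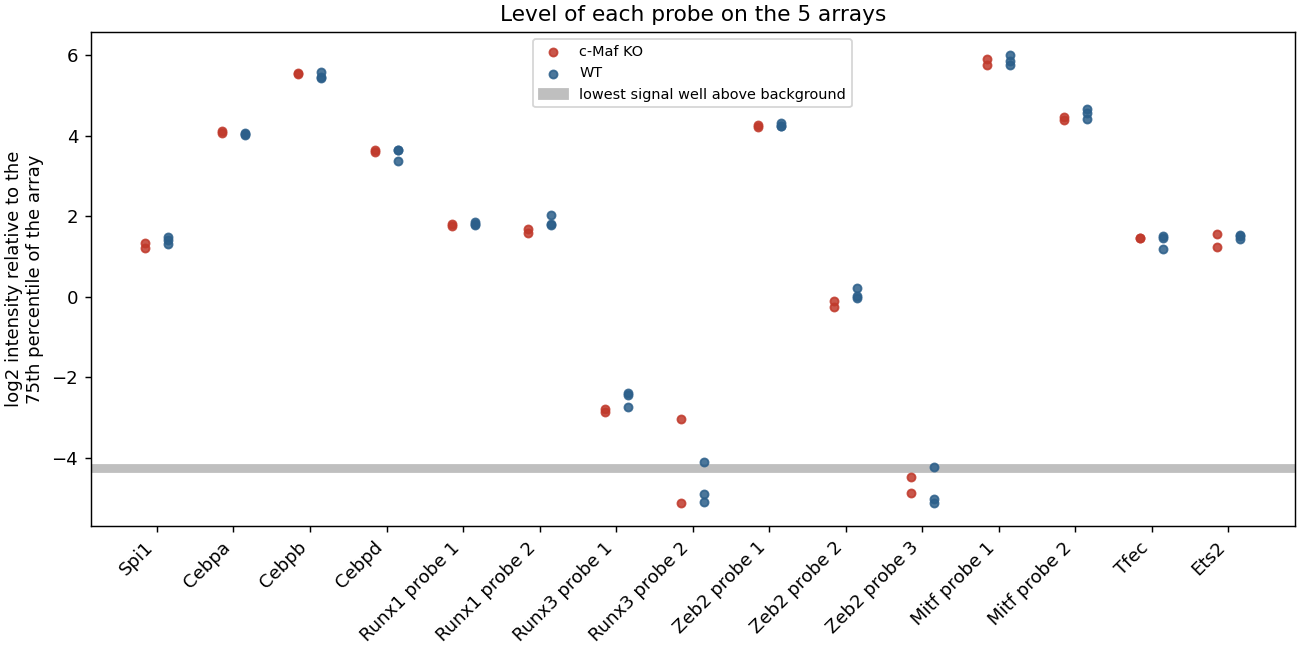
Level of each of the 15 probes on the 5 arrays, as log2 intensity relative to the array's 75th percentile, c-Maf KO in red (n = 2) and WT in blue (n = 3). The grey band spans the lowest signals well above background on each array; the third Zeb2 probe and 3 of the 5 values of the second Runx3 probe were not well above background, and levels of different probes are not comparable.

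Spi1, whose product PU.1 is required to form macrophages, measured 0.14, -0.026 and -0.16 in c-Maf KO replicates 1 to 3 (log2 ratio) and 0.026, 0.097 and -0.041 in WT replicates 1 to 3. Both the highest and the lowest sample were c-Maf KO, with every WT value between them. The difference was -0.044 (95% interval -0.27 to 0.19, adjusted p = 0.876). Among these samples, that interval put Spi1 in c-Maf KO at 0.828 to 1.14 times its WT level. On the 5 arrays its level averaged 1.28 ± 0.083 in c-Maf KO (SD, n = 2) and 1.41 ± 0.079 in WT (SD, n = 3), and the difference was -0.12 (SE 0.082, adjusted p = 0.661).

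Cebpa encodes C/EBP alpha, which drives the step from multipotent to granulocyte and monocyte progenitors. Its probe lies at chromosome 7, 35906517 to 35906576 (mm9). Its log2 ratios were 0.29, 0.074 and -0.0031 in c-Maf KO and -0.049, 0.00060 and -0.00060 in WT. c-Maf KO replicate 1 stood above the other 5 samples, and c-Maf KO replicate 3 fell inside the span of WT. The difference was 0.14 with all 6 samples (95% interval -0.084 to 0.36, adjusted p = 0.583) and 0.050 on the 5 arrays, which lack that replicate (adjusted p = 0.821).

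Cebpb encodes C/EBP beta, a factor of emergency myelopoiesis and of Arg1 induction in macrophages (probe at chromosome 2, 167515828 to 167515887, mm9). It measured 0.21, 0.030 and -0.025 in c-Maf KO and -0.11, 0.025 and -0.066 in WT. Here too c-Maf KO replicate 1 was highest, and the other samples of both genotypes were interleaved. The difference was 0.12 (95% interval -0.085 to 0.33, adjusted p = 0.595), and 0.051 on the 5 arrays (adjusted p = 0.841). Cebpd encodes C/EBP delta, which amplifies acute Toll-like receptor responses (probe at chromosome 16, 15888459 to 15888518, mm9). It measured 0.0080, -0.032 and -0.0037 in c-Maf KO and 0.0037, -0.27 and 0.028 in WT. The 3 c-Maf KO samples were nearly equal, and WT replicate 2 alone was low. The difference was 0.072 (95% interval -0.16 to 0.31, adjusted p = 0.790) and had the opposite sign, -0.025, without WT replicate 2.

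Runx1, which founds definitive blood formation and acts on the Spi1 enhancer, was read by 2 probes on chromosome 16 (92604413 to 92604472 and 92605785 to 92605844, mm9). At the first, the log2 ratios were 0.037, 0.0068 and -0.047 in c-Maf KO and -0.013, 0.049 and -0.0068 in WT. All 6 samples lay close together, and the difference was -0.010 (95% interval -0.15 to 0.13, adjusted p = 0.957). The second probe measured 0.017, -0.091 and -0.21 in c-Maf KO and -0.017, 0.23 and 0.041 in WT. Its samples overlapped in the value table, since c-Maf KO replicate 1 lay between WT replicates 1 and 3. Its difference was -0.18 (95% interval -0.42 to 0.057, adjusted p = 0.513), and the 2 probes of Runx1 were not tested against each other.

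Runx3, which is known best for its roles in T cells and in dendritic cells that respond to TGF-beta, was the member with the largest difference among the probes detected on all arrays. At its brighter probe (chromosome 4, 134731959 to 134732018, mm9) the log2 ratios were -0.28, -0.099 and -0.028 in c-Maf KO and 0.32, 0.35 and 0.028 in WT. All c-Maf KO values lay below all WT values, but c-Maf KO replicate 3 and WT replicate 3 were close to each other. The difference was -0.37 (SE 0.12, 95% interval -0.65 to -0.083, adjusted p = 0.314), so WT was 1.29-fold higher without passing the test. It was the 1 member probe with an unadjusted p under 0.05. It was also the only one of the 14 whose genotypes were fully apart in the value table, beside 9.26% of all probes with c-Maf KO lower and 19.4% in either direction. No member probe was fully apart with c-Maf KO higher, beside 10.2% of all probes. On the 5 arrays the level averaged -2.82 ± 0.063 in c-Maf KO (SD, n = 2) and -2.53 ± 0.19 in WT (SD, n = 3), with a difference of -0.30 (adjusted p = 0.516). On those arrays 3 of the 14 probes were fully apart, beside 29.4% of all probes. They were this Runx3 probe, the second Runx1 probe and the second Zeb2 probe, all lower in c-Maf KO, beside 16.2% of all probes, with 0 higher, beside 13.2%.

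The second Runx3 probe (chromosome 4, 134733846 to 134733905, mm9) was well above background on 1 of 2 c-Maf KO arrays and 1 of 3 WT arrays. Its log2 ratios were 0.89, 1.48 and -0.63 in c-Maf KO and -0.41, -0.60 and 0.41 in WT. The c-Maf KO samples held both the highest and the lowest value. The difference was 0.78 (95% interval -0.63 to 2.18, adjusted p = 0.614), opposite in sign to the brighter probe and too loosely measured to bound it.

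Mitf, the founding member of the MiT family and a factor of osteoclasts, mast cells and pigment cells, was read by 2 probes on chromosome 6 (97971229 to 97971288 and 97968501 to 97968560, mm9). The first measured 0.097, 0.036 and -0.14 in c-Maf KO and -0.036, 0.12 and -0.11 in WT. Both genotypes covered the same range, and the difference was 0.0078 (95% interval -0.23 to 0.24, adjusted p = 0.982). The second measured 0.052, -0.099 and -0.052 in c-Maf KO and -0.095, 0.058 and 0.17 in WT, with a difference of -0.076 (95% interval -0.29 to 0.14, adjusted p = 0.757). Tfec, a MiT factor largely restricted to macrophages and induced there by IL-4, measured 0.23, 0.010 and -0.018 in c-Maf KO and 0.043, -0.010 and -0.27 in WT. The highest sample was c-Maf KO replicate 1 and the lowest WT replicate 3, with the other 4 samples close together (probe at chromosome 6, 16783720 to 16783779, mm9). The Tfec difference was 0.15 (95% interval -0.13 to 0.43, adjusted p = 0.619), and 0.073 on the 5 arrays.

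Zeb2, an E-box repressor that holds tissue macrophages and monocytes in their identity, had the smallest difference of all members at its brightest probe (chromosome 2, 44842774 to 44842833, mm9). There it measured 0.068, -0.0099 and 0.0044 in c-Maf KO and -0.0044, -0.023 and 0.077 in WT. The difference of 0.0043 (95% interval -0.15 to 0.15, adjusted p = 0.984) was nearest to 0 of the 14 in the value table. The second probe (chromosome 2, 44840038 to 44840097, mm9) measured 0.036, -0.083 and -0.25 in c-Maf KO and -0.030, 0.22 and 0.030 in WT. WT replicate 2 was highest and c-Maf KO replicate 3 lowest, in the same way as at the second Runx1 probe, and the difference was -0.17 (95% interval -0.43 to 0.086, adjusted p = 0.557). The third probe gave no usable level, and its window is printed above.

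Ets2, an ETS factor that relays M-CSF and MAP kinase signals, measured -0.030, -0.27 and 0.050 in c-Maf KO and -0.070, 0.032 and 0.030 in WT. Its probe lies at chromosome 16, 95942227 to 95942286 (mm9). c-Maf KO replicate 2 alone was low, and c-Maf KO replicate 3 was highest. The difference was -0.079 (95% interval -0.32 to 0.16, adjusted p = 0.771), and it was 0.013 without c-Maf KO replicate 2.

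**Figure D2:**
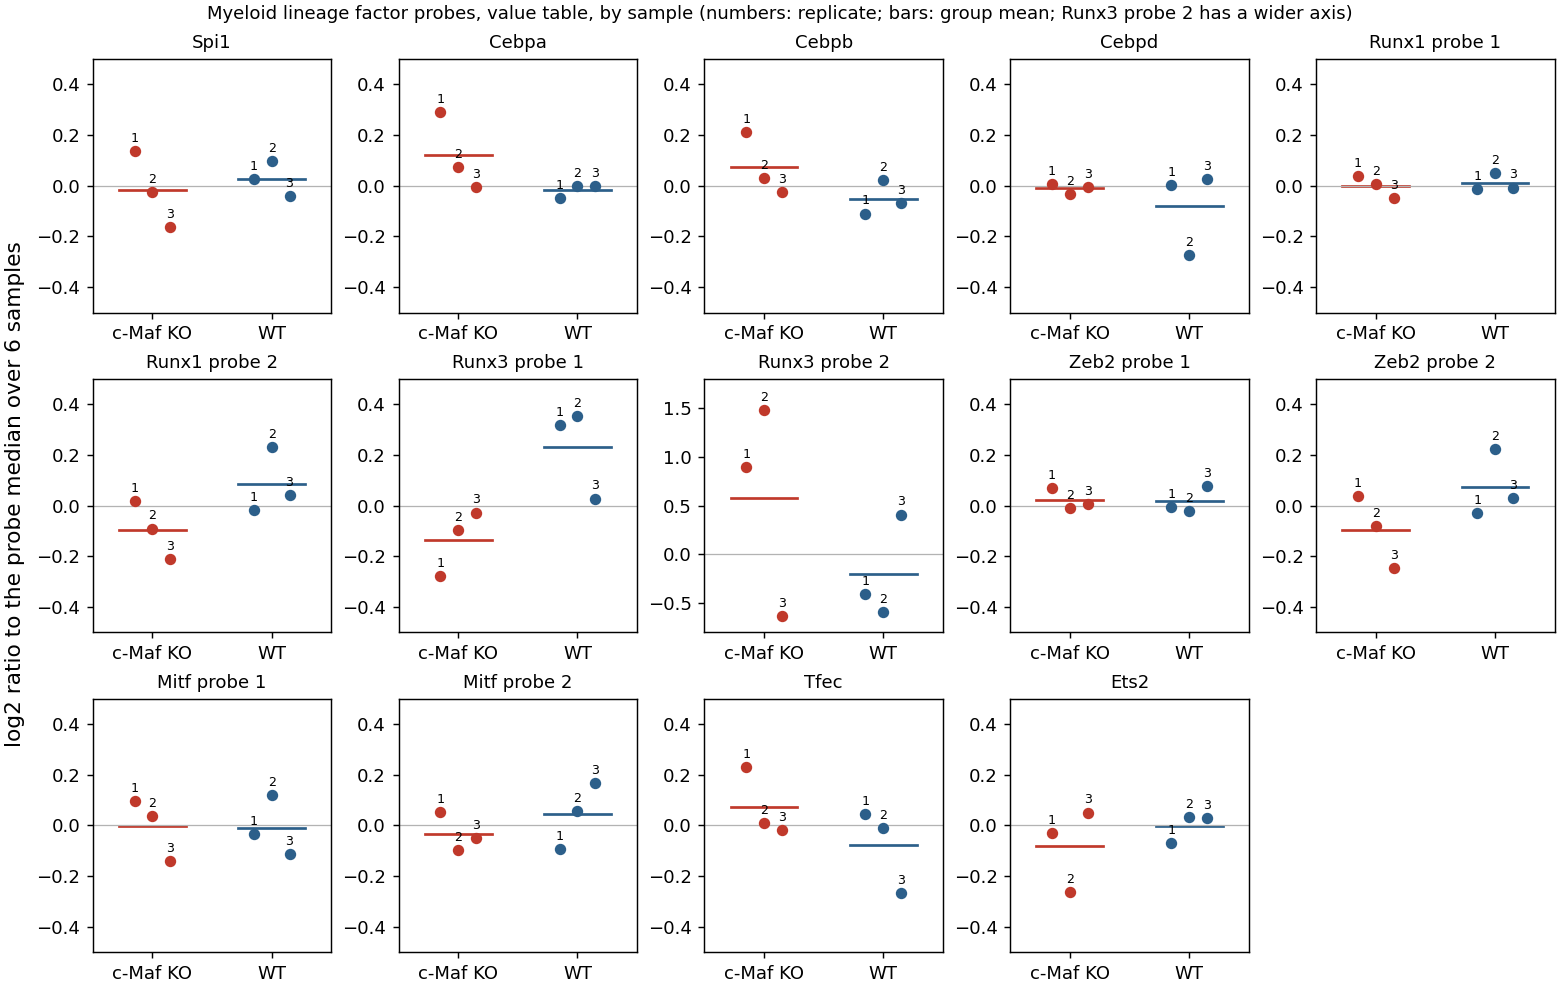
Log2 ratio to the probe's median over 6 samples for each of the 14 probes, c-Maf KO left and WT right, numbered by replicate, with bars at the group means (n = 3 each). The genotypes overlap in 13 panels; at the first Runx3 probe the c-Maf KO values (-0.28 to -0.028) lie below the WT values (0.028 to 0.35).

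**Figure D3:**
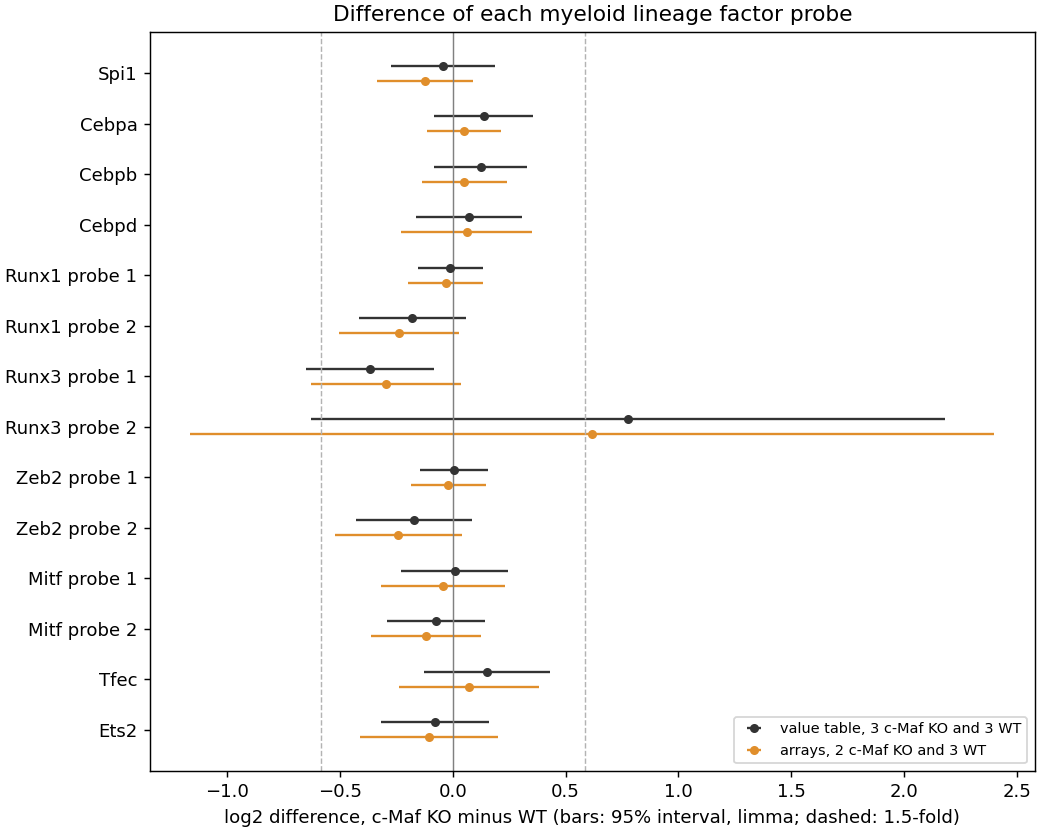
Log2 difference, c-Maf KO minus WT, of each of the 14 probes with its 95% interval from limma, in the value table (black, 3 and 3 samples) and on the arrays (orange, 2 and 3 samples). The second Runx3 probe has by far the widest interval (-0.63 to 2.18 in the value table), and intervals of 12 probes stay within the dashed 1.5-fold lines.

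The highest and lowest values were unevenly spread over the samples of each genotype. Over the 13 probes detected on all arrays, c-Maf KO replicate 1 was highest for 4 and lowest for 1, and c-Maf KO replicate 3 was highest for 1 and lowest for 5. WT replicate 2 was highest for 5 and lowest for 2. Over all 28273 probes the same 3 samples were highest for 24.0%, 9.43% and 16.1% and lowest for 16.6%, 23.8% and 14.7%. The 3 C/EBP genes and Tfec had positive differences in both sources. Counted over the 14 probes, 7 differences were below 0 in the value table, beside 50.9% of all probes, and 9 on the 5 arrays, beside 53.9%.

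Markers of other cells also varied between the samples, and no marker gene passed. All 10 measured stromal markers had positive differences, with a median of 0.89 in the value table. Their mean log2 ratio was 0.22, 0.082 and 0.53 in c-Maf KO and -0.10, -0.99 and -0.62 in WT, with WT replicate 1 nearest to c-Maf KO. Their summed level was 239 and 264 in c-Maf KO replicates 2 and 3 and 106 to 183 in WT, in multiples of the 75th percentile. Of the 10 macrophage markers 9 had negative differences in the value table, beside 50.9% of all probes. Their median was -0.20, beside -0.0038 for all probes. With c-Maf KO wholly lower there were 5 of the 10, beside 9.26% of all probes, and with c-Maf KO wholly higher 1, beside 10.2%. Lum was the stromal marker not well above background. Of 9 neutrophil markers 7 had negative differences, with a median of -0.39, and 2 of the 9, Mpo and Elane, also belong to the PU.1 and C/EBP targets. Their mean log2 ratio was -0.38, 0.30 and -0.38 in c-Maf KO and -0.045, 0.014 and 0.54 in WT, so c-Maf KO replicate 2 lay among the WT samples. Several of the 10 lineage factors are also active in neutrophils or stromal cells, and the part of these signals in their levels was not tested. In such mixed RNA, fewer cells of a type and less RNA per cell cannot be told apart.

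Paralogues and partners of the members were described with the same fit, each by its brightest probe. Of 22 listed genes 19 were measured, and 0 rose and 0 fell in either source. Their median difference was -0.046 in the value table, with 13 of 19 negative, beside -0.0038 for all probes. It was -0.11 on the 5 arrays, with 14 of 19 negative, beside -0.014 for all probes. Runx2, the bone-forming RUNX factor, measured 0.18, 0.15 and 0.079 in c-Maf KO and -0.47, -0.079 and -0.80 in WT. All c-Maf KO samples lay above all WT samples, but the difference of 0.59 did not pass (SE 0.18, adjusted p = 0.306). Zeb1, the mesenchymal relative of Zeb2, measured 0.35, 0.090 and 0.21 in c-Maf KO and -0.41, -0.090 and -0.15 in WT, with a difference of 0.43 (SE 0.11, adjusted p = 0.267). Runx2 and Zeb1 were the 2 of the 19 with all c-Maf KO samples above all WT samples, beside 10.2% of all probes. With c-Maf KO wholly lower there were 0 of the 19, beside 9.26%. Of the 10 stromal markers 8 lay wholly above WT and 0 wholly below. Whether the difference is particular to Runx2 and Zeb1 was not tested.

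Known targets of PU.1 and C/EBP factors lay on both sides of 0. All 28 were measured and 0 passed in either source. There were 14 positive and 14 negative differences in the value table (median -0.00035), and 12 positive and 16 negative on the 5 arrays (median -0.028). Lyz2, the macrophage lysozyme, measured 0.39, 0.054 and 0.17 in c-Maf KO and -0.093, -0.054 and -0.22 in WT, with a difference of 0.33 (SE 0.11, adjusted p = 0.319). Lyz2 has a near-identical neighbour, Lyz1, so its value is uncertain. Hp, the haemoglobin scavenger haptoglobin, measured 0.45, 0.038 and 0.89 in c-Maf KO and -0.038, -0.48 and -0.34 in WT (difference 0.74, SE 0.23, adjusted p = 0.311). Saa3, an acute phase gene, was not well above background on any WT array. Its level was higher by at least 1.83-fold in the c-Maf KO arrays (adjusted p = 0.457). Saa3 was kept only through the c-Maf KO arrays, so a difference there says no more than that bound. In the value table all c-Maf KO samples lay above all WT samples for Lyz2 and Hp, and neither passed. This held for 5 of the 28 genes, Saa3 included, beside 10.2% of all probes. With c-Maf KO wholly lower there was 1 of the 28, beside 9.26%. Lyz2, Csf1r, Cd68, Itgam and Cd14 are also among the 10 macrophage markers, so the 2 lists are not independent.

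Known targets of Mitf and its relatives included the gene nearest to the threshold. Of 21 listed genes 18 were measured, 12 had positive differences in the value table and 9 on the 5 arrays, and 0 passed in either source (median 0.061 and -0.0096). Acp5, the tartrate-resistant acid phosphatase of osteoclasts, measured 0.42, 0.19 and 0.36 in c-Maf KO and -0.19, -0.20 and -0.20 in WT. All c-Maf KO samples lay above all WT samples, and the difference of 0.52 did not pass (SE 0.076, adjusted p = 0.140). Ctsk, the collagen-cleaving cathepsin K, measured 0.15, 0.0023 and 0.11 in c-Maf KO and -0.0023, -0.29 and -0.30 in WT (difference 0.29, SE 0.10, adjusted p = 0.364). Oscar, an osteoclast receptor, lay the other way, at -0.044, -0.085 and -0.063 in c-Maf KO and 0.20, 0.32 and 0.044 in WT (difference -0.25, SE 0.084, adjusted p = 0.339). In the value table c-Maf KO was wholly higher for 3 of the 18 genes, Acp5 and Ctsk included, beside 10.2% of all probes. It was wholly lower for 1, Oscar, beside 9.26%. Ctsk and Acp5 are also made outside the macrophage lineage, and the pigment cell targets Dct, Pmel and Mlana were not well above background.

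Factors of other blood lineages gave no called gene either. Of 21 listed genes 14 were measured and 0 passed in either source. The median was -0.022 in the value table and 0.020 on the 5 arrays, while Gata3, Klf1, Gfi1, Myb, Pax5, Tcf7 and Bcl11b fell below the detection limit. Gata2, a factor of stem cells and mast cells, measured -0.50, -0.090 and -0.14 in c-Maf KO and 0.090, 0.13 and 0.83 in WT, with a difference of -0.60 (SE 0.23, adjusted p = 0.394). WT replicate 3, its highest sample, was also highest in the mean of 5 measured mast cell and basophil markers. That mean was -1.02, 1.00 and -1.19 in c-Maf KO and 0.089, -0.13 and 1.47 in WT, and its part in the Gata2 values was not tested. It rests largely on dim probes. Of these markers only Tpsb2 was well above background on all 5 arrays, Mcpt8 and Prss34 on 4, and Cpa3 and Fcer1a on 2. Lmo2, an adaptor of early blood factors, measured -0.066, -0.23 and -0.11 in c-Maf KO and 0.066, 0.087 and 0.15 in WT (difference -0.24, SE 0.069, adjusted p = 0.294). Gata2 and Lmo2 were the 2 of the 14 with c-Maf KO wholly lower in the value table, beside 9.26% of all probes. With c-Maf KO wholly higher there were 0, beside 10.2%.

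**Figure D4:**
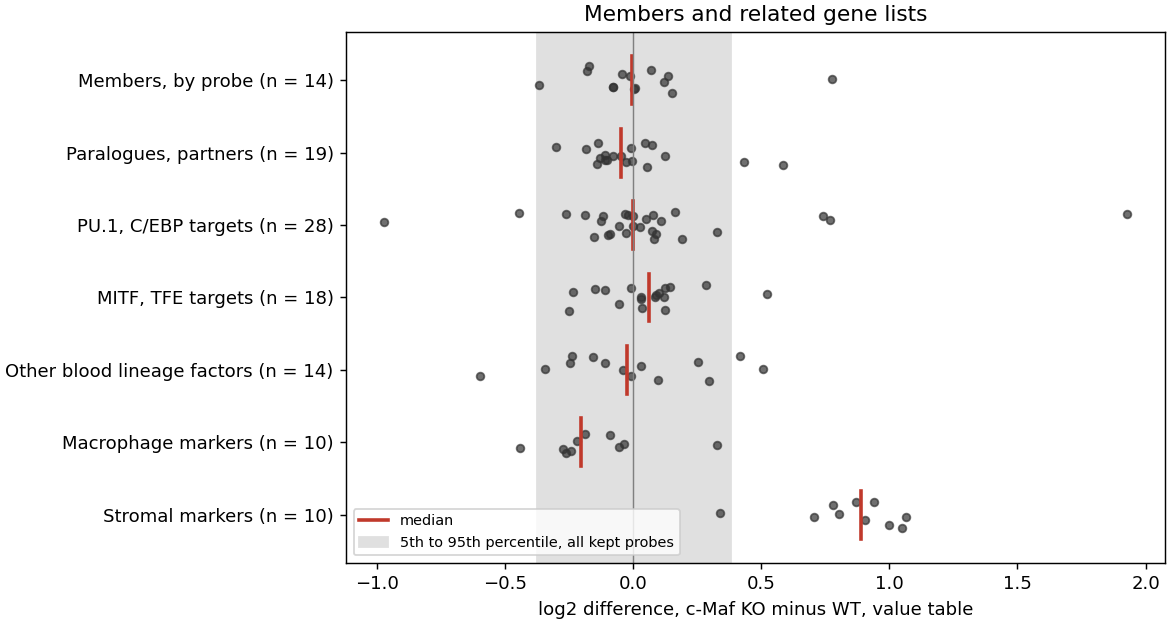
Log2 difference, c-Maf KO minus WT, in the value table for the 14 probes of the 10 lineage factors, for the genes of 4 related lists and for macrophage and stromal markers, each point 1 probe or gene and each red bar a median. The grey band spans the 5th to the 95th percentile of all probes tested (-0.37 to 0.38); the medians of the members and the 4 related lists lie near 0 and that of the stromal markers at 0.89.

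The promoters were searched for letters that these factors and c-Maf are known to bind, over the 250 bases before each start in RefSeq (GRCm38.p6). The table held 15 windows for 8 of the members, some of them overlapping, and none for Spi1 and Cebpd. TGCTGA, the letters of 1 side of the Maf recognition element, was found on either strand in 2 of the 15 windows, beside 16.1% of 32851 windows of all genes. Both lay before Mitf, whose RNA differed by 0.0078 and -0.076 at its 2 probes. GAGGAA, a PU.1 core, was found in 5 of the 15 windows (Runx1 and Zeb2), beside 23.3% of all windows. Among these, 2 Zeb2 windows overlap and hold the same site, which was counted in each. TTGCNNAA, for C/EBP factors, was in 2 (Zeb2 and Mitf), beside 9.56%. TGTGGT, for RUNX factors, was in 3 (Runx3, Mitf and Tfec), beside 14.0%. CACGTG, for MiT factors, was in 1 (Runx1), beside 6.02%, and TCATGTG in 0, beside 3.25%. CACCTG, for ZEB factors, was in 3 (Runx1, Runx3 and Mitf), beside 17.2%. The windows that hold the Maf letters are printed with those letters in capitals, because c-Maf is the factor that was removed. Of the 2 Runx3 windows, 1 holds the reverse complement of the RUNX letters, in capitals, at 2 nearby places. It is printed because Runx3 had the largest difference among the probes detected on all arrays, which did not pass:

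Mitf window at chr6:97806808-97807057, plus strand: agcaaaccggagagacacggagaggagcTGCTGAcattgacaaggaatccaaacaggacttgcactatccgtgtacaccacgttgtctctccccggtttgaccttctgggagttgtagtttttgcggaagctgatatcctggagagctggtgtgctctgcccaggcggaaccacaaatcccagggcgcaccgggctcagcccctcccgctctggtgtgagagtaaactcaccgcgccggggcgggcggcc
Mitf window at chr6:97929567-97929816, plus strand: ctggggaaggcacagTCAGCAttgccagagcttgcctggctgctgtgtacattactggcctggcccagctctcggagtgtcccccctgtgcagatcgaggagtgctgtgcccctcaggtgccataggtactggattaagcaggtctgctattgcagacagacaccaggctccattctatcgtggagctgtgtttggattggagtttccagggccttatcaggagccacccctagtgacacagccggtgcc
Runx3 window at chr4:135120395-135120644, plus strand: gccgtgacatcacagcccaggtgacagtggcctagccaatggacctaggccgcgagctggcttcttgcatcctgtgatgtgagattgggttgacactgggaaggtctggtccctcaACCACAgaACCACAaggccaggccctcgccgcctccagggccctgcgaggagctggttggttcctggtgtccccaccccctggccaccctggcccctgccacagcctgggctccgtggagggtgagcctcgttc

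A match of letters is not a binding site, and no binding was measured in these samples.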

How the data were processed

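Spot intensity values were deposited by the authors as Agilent Feature Extraction output (version 10.7.3.1 in the submitters' processing notes). Detrending, spatial and multiplicative, was applied without a separate background correction, and dim spots could take surrogate values, per the file headers. The deposited value table holds a linear ratio to each probe's median over 6 samples. Centred over the 5 arrays, its log2 values followed the scanner values with a spread of at most 0.0213 per probe. Any floor set by the authors is not stated in those sources.

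Control spots were left out, as were outlier spots (134 to 167 of 59305 others per array), processed intensities were scaled to each array's 75th percentile, log2 was taken and spots of a probe were averaged. Probes well above background on at least 2 arrays were kept (28273). Members were taken by the array's gene name, other genes also through RefSeq accessions, each by its brightest kept probe. Probe coordinates are those of the files (mm9). Whether a probe lies in an exon or UTR was not annotated here. c-Maf KO minus WT was tested with limma (version 3.58.1, under R version 4.3.3; lmFit, eBayes, Benjamini-Hochberg adjusted p under 0.05, two-sided) over all kept probes, on the 5 arrays and on the value table, and the procedure was tested on simulated data. The value table shares the 5 arrays, so both sources are not independent. The labels do not say whether replicate numbers pair the samples. Same-numbered deviations correlated at -0.0043, -0.044 and 0.082, and differently numbered ones at -0.07 to 0.075. Such correlations cannot show whether samples were prepared together.

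Every probe of the members was named. Of each related list, up to 4 genes past the threshold were to be named, or else up to 3 genes with the largest value-table difference among those whose genotypes did not overlap. The members and lists were chosen with earlier results of these data known. Alternatives were other background corrections, normalizations, filters and variance models, 1 probe per gene, a replicate block, WT replicates 1 and 3 averaged (their file names share a tag) and each replicate left out.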

Additional observations from a re-analysis of the deposited data

How the results depend on the processing

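limma called no member probe under the 16 alternatives of the 5-array test or the 10 of the value-table test, with a lowest adjusted p of 0.268. Over all alternatives, 338 of 359 differences kept their sign. This count includes alternatives that could not change a sign. Those that altered only the probes tested or the variance model left each difference as it was. The same holds for the replicate block in the value table, where each number occurs in both genotypes. The difference of the brighter Runx3 probe stayed between -0.41 and -0.18 on the 5 arrays and between -0.47 and -0.30 in the value table.

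The other 21 changed sign, all of them differences that had not passed, and the cause was not tested. With the value table in place of the 5 arrays, the first Zeb2 probe measured 0.0043 and the first Mitf probe 0.0078. On the 5 arrays, the range with 1 replicate left out was -0.032 to 0.11 for Cebpd, -0.12 to 0.036 for the first Mitf probe, -0.029 to 0.14 for Tfec, -0.038 to 0.0025 for the first Zeb2 probe, -0.27 to 0.061 for Ets2 and -0.43 to 1.67 for the second Runx3 probe. In the value table it was -0.019 to 0.035 for the first Zeb2 probe, -0.044 to 0.078 for the first Mitf probe, -0.029 to 0.012 for the first Runx1 probe, -0.025 to 0.13 for Cebpd, -0.14 to 0.013 for Ets2 and -0.12 to 0.028 for Spi1.

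Over all probes, the 5-array test called 7 and the value-table test 6. On the 5 arrays there were 22 calls with normexp correction, 1 with probes above background on all arrays, 123 with the trend and robust model, 2 with WT replicates 1 and 3 averaged, and 2 to 18 with 1 replicate left out (2 without each WT replicate, 18 and 15 without c-Maf KO replicates 2 and 3, where the lone c-Maf KO sample is assumed to vary like WT). With the replicate block the 5 arrays gave 0 calls (2864 at an unadjusted p under 0.05, limma), and there were 7 in the value table. No c-Maf KO array shares the number of WT replicate 1, so the block fit on the 5 arrays makes no use of that sample. Its differences for the member probes equalled those without WT replicate 1. Whether the numbers pair the samples is not stated, and no member probe was called with the block. In the value table there were 2 calls without a filter on dim probes, 50 with the trend and robust model, and 2 to 31 with 1 replicate left out, 31 without WT replicate 1, 7 without c-Maf KO replicate 1 and 2 or 3 without each of the others. All 5 arrays lay on 1 slide, so the slide could not be used as a block. Signal over background limits the second Runx3 and the third Zeb2 probe.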
